A study of Mus musculus with 2 samples.

Results

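The genes described here are 8 lectin-like receptor genes of mouse chromosome 6, namely Klrb1c, Klrd1, Klrk1, Klrc1, Klrc2, Klre1, Klrg1 and Cd69. Their regulatory surroundings were taken as every open chromatin region on chromosome 6 that overlapped the GENCODE M21 body of 1 of these genes or the 20 kb on either side of it. That rule gave 47 of 98786 regions in replicate 1 and 42 of 91403 in replicate 2. It gave 41 of the 84380 regions shared by both replicates. A region is called shared when a region of the other replicate overlapped it by at least 1 bp.

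The data come from T-helper 1 primary cells of mouse strain C57BL/6NJ, which form the only group of the series, with 2 biological replicates and no control or second condition. The assay is ATAC-seq per the labels, in which a transposase cuts and tags DNA that is not packed away by nucleosomes. Both biosamples carry 1 donor identifier, sex was not collected and age is unknown. Nothing says that separate animals were used, so differences between the replicates may be technical. T-helper 1 cells, a class of CD4 T cell, depend on the factor T-bet and secrete interferon-γ. Each library is from bulk cells, so a larger share of cells with an open region and a more open region per cell cannot be told apart.

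The NK gene complex is a stretch of chromosome 6 that carries genes of C-type lectin-like receptors, proteins first known from natural killer cells and found also on subsets of activated and memory T cells. Some of these receptors inhibit the cell through tyrosine-based motifs in their own tails. Others activate it through partner proteins such as DAP10 and DAP12, since they carry no such signalling motif themselves. Klrd1 encodes CD94, which pairs with the inhibitory NKG2A protein of Klrc1 or the activating NKG2C protein of Klrc2. Klrk1 encodes the activating receptor NKG2D, Klrb1c the antigen by which natural killer cells of C57BL/6 mice are recognised, and Klrg1 an inhibitory receptor of effector cells. Cd69 is induced early on activated lymphocytes and holds them in tissue. Klrg1 lies apart from the other 7 genes, nearer the centromere.

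The DNA at the strongest region of each locus is shown because these regions carry most of the description that follows. Each stretch is the summit of the region in replicate 1 with 100 bp on either side, read 5′ to 3′ on the + strand of GRCm38.p6, the assembly of mm10. This reference is from C57BL/6J, a sister strain of the one sampled. Distances are of the summit from the first start of the gene, negative where it lies upstream. Capitals mark matches, on either strand, to the motifs searched, and the letters of the shorter ones are given with the motif counts. The long run of capitals in the Klre1 stretch is a CTCF match, whose letters are not spelled out.
Klrg1, at 24.7 kb (chr6:122258054-122258254): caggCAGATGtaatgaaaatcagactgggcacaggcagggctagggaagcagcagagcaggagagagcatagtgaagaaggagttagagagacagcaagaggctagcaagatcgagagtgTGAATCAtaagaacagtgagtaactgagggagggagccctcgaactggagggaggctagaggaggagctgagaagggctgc
Klrb1c, promoter region (chr6:128789833-128790033): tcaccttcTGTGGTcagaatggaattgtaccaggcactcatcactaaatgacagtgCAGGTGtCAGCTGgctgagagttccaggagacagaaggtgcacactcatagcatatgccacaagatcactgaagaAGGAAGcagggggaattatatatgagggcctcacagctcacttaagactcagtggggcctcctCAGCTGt
Cd69, at −9.16 kb (chr6:129284494-129284694): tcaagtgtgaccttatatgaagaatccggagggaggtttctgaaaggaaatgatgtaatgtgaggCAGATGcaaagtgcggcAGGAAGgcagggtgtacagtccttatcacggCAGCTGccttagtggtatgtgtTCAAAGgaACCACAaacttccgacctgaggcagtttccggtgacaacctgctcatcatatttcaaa
Klre1, at −18.5 kb (chr6:129559352-129559552): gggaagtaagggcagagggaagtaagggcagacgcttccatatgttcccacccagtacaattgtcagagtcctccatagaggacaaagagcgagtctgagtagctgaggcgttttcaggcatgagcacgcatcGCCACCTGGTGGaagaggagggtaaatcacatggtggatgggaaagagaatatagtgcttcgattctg
Klrd1 and Klrk1, between the genes (chr6:129608485-129608685): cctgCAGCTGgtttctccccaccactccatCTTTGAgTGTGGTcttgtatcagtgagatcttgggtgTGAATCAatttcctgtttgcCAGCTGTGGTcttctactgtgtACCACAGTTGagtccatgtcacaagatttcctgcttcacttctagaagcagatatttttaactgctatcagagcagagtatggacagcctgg
Klrc1 and Klrc2, at −1.63 kb from Klrc1 (chr6:129680499-129680699): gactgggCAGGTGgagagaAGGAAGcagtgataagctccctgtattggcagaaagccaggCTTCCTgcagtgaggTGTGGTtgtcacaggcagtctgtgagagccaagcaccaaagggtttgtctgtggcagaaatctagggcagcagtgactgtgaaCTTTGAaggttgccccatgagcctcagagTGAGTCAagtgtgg
The stretches next to Klrd1 and Klrc1 each held matches for RUNX, AP-1, E-box and TCF/LEF. The stretch between Klrd1 and Klrk1 held 3 RUNX matches, 2 of which overlap an E-box match. In the Klre1 stretch the E-box match lies inside the CTCF match. A match is a run of letters and says nothing by itself about binding.

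Open promoters were present at 6 of the 8 genes, all but Klrc1 and Klrc2. A promoter counted as open when a shared region lay within 1 kb of any annotated start of the gene, and by that rule 65.9% of the 21911 protein-coding genes had one. A share of 6 in 8 is close to that background. The strengths were unequal. The values below are the deposited signal of the strongest promoter region, an enrichment taken from the authors' caller, and each is followed by its mean percentile over the replicates among all open coding promoters. Klrb1c had a promoter signal of 18.3 in replicate 1 and 16.1 in replicate 2, a percentile of 95.3. Klrg1 had 11.4 and 11.4 (percentile 51.6), Klre1 10.5 and 9.62 (40.1), Klrk1 10.3 and 9.19 (37.8), and Cd69 9.54 and 9.61 (36.2). Klrd1 was lowest with 5.13 and 4.06 (6.91). The order Klrb1c, then Klrg1, then the group of Klrk1, Klre1 and Cd69, then Klrd1 was the same in both replicates, whereas within that group of 3 the order changed with the replicate.

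**Figure D1:**
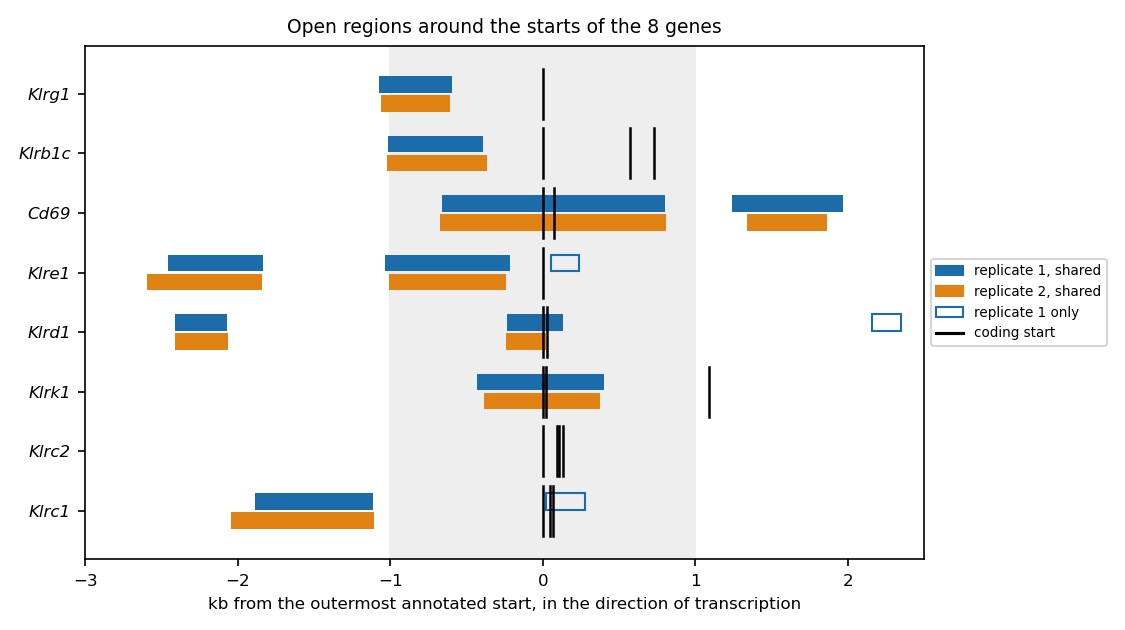
Extent of the open regions around the starts of the 8 genes, in kb from the outermost annotated start in the direction of transcription. Bars are regions found in both replicates, open boxes are regions of replicate 1 alone, black lines are coding starts and grey marks 1 kb on either side. Bars lie across the first start at Cd69, Klrd1 and Klrk1 and wholly upstream of it at Klrg1, Klrb1c, Klre1 and Klrc1.

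Where the region lay relative to the start separated these genes further. At 3 of the 6 genes with a shared region within 1 kb of a coding start, Klrd1, Klrk1 and Cd69, the region covered the base of a start, against 93.9% of the 14134 coding genes with such a region. Promoters poor in CpG are covered less often. Among the 1017 genes whose promoter region had a CpG observed over expected ratio no higher than the highest of these 6 genes (0.252), the share was 69.4%. At the other 3 genes the nearest shared region ended upstream of the first coding start, by 596 bp at Klrg1, 367 bp at Klrb1c and 215 bp at Klre1. At Klrc1 the gap was 1110 bp, just past the 1 kb limit. Klrc2 had its nearest shared region 19394 bp away. These gaps are those of shared regions, and replicate 1 alone had a region nearer the start at Klrc1 and Klre1.

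Klrd1, which encodes the common chain CD94 of the NKG2 heterodimers, lies on the + strand at chr6:129591782-129598775 (ENSMUSG00000030165.16). Its promoter region (129591538 to 129591911) covered the start and reached into the first exons, with a signal of 5.13 and 4.06 and a −log10 q of 16.2 and 9.62. A stronger region stood at −2.31 kb, with 7.43 and 7.27. The strongest region in its window lay beyond the 3′ end of the gene, between Klrd1 and the 3′ end of Klrk1 (129608169 to 129609076). It had a signal of 13.0 in replicate 1 and 14.7 in replicate 2, at percentiles 88.2 and 94.3 of all regions of each list. In both replicates that intergenic region was more than 2 times as strong as the promoter of Klrd1.

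Klrc1 and Klrc2 encode the inhibitory and the activating partner of CD94. Klrc1 lies on the − strand at chr6:129666015-129678973 (ENSMUSG00000030167.15) and Klrc2 beside it at chr6:129647496-129660689 (ENSMUSG00000052736.15). The region at −1.63 kb from the start of Klrc1 (129680083 to 129681016) was among the strongest of all 41, with a signal of 15.7 and 14.8, percentiles of 95.9 and 94.7, and a −log10 q of 381 and 308. It lay wholly outside the GENCODE gene and upstream of its start. A predicted RefSeq start of Klrc1 lies further out, at 129682852, and no shared region covered it. At the start of Klrc1 itself replicate 1 alone had a region (129678699 to 129678954), with a signal of 3.71 and a −log10 q of 28.6. Further upstream of Klrc1 stood regions at −8.29 kb (8.86 and 8.91) and −14.9 kb (5.26 and 7.37), and fainter ones between them.

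Klrc2 had no shared region in its body or within 19 kb of its start. The span from 129627850 to 129680082 held none in 52.2 kb, and it takes in Klrc2, Klrc1 and Klrc3. The median distance between neighbouring shared regions on the chromosomes was 7.72 kb, and 6.42% of such distances were at least as long as this one. Reads from stretches that occur more than once in a genome are hard to place. Of all 31-letter words in Klrc1, 51.5% also occur in Klrc2 and 1.74% in Klrc3, and 39.4% occur once in the genome. Of those in Klrc2, 50.5% also occur in Klrc1 and 9.82% in Klrc3. In Klrc2 33.1% occur once, against 78.6% to 98.4% in the other 6 genes. How reads with several possible positions were treated is not given in the sources used here, and the part of this in the absence of regions at Klrc2 was not tested. The region of replicate 1 at the start of Klrc1 consists wholly of words found once.

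Klrk1, the gene of NKG2D, lies on the − strand at chr6:129610323-129623864 (ENSMUSG00000030149.15). Its promoter region (129623463 to 129624294) was centred on the first start, with a signal of 10.3 and 9.19 and a −log10 q of 78.3 and 48.9. A weaker region stood at −3.78 kb, with 5.07 and 4.62. The remaining strong region of its window is the one shared with Klrd1, 15.3 kb downstream of the start of Klrk1 and beyond its last exon. Inside the gene body the promoter region was the sole shared region.

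Klre1, whose product pairs with the receptor proteins of Klri1 and Klri2, lies on the + strand at chr6:129577905-129585827 (ENSMUSG00000050241.8). The region next to its first start (129576869 to 129577690) had a signal of 6.19 and 6.81 and ended 215 bp before it. Replicate 1 alone had a faint region just inside the gene (129577960 to 129578142), at 2.82. A stronger region within the gene (129582936 to 129584302; 10.5 and 9.62) lies at the start of a retained-intron transcript, and it is this region that gives Klre1 its promoter percentile of 40.1. The strongest region of the window stood at −18.5 kb (129558685 to 129559939), with 11.4 and 10.8. It covers a pair of predicted RefSeq starts of Klre1, and the region at −11.9 kb (129565480 to 129566239; 9.00 and 9.06) covers a further one. These far starts are computed predictions, and the curated RefSeq starts of Klre1 lie inside the gene, where no shared region covered them.

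Klrb1c lies on the − strand at chr6:128778485-128789215 (ENSMUSG00000030325.16). Its promoter region (128789582 to 128790240), whose summit fell at the same base in both replicates, was the strongest of all 41 by signal. It reached 18.3 and 16.1, at percentiles 99.3 and 97.3 of all regions, with a −log10 q of 194 and 140. Its summit lies at −0.718 kb from the start and within an intron of Gm44511, an annotated coding gene that overlaps Klrb1c and runs on beyond it. A pair of further strong regions lay in introns of Gm44511, at −14.0 kb (128802717 to 128803443; 12.1 and 12) and at −19.5 kb (128808486 to 128808977; 12.8 and 11.7). The region at −14.0 kb had the higher −log10 q, 332 and 292. No shared region lay inside Klrb1c. The regions of this locus had fewer words found once than elsewhere, down to 54.5% in 1 weak region beyond the 3′ end and 88.2% in the promoter region, and the part of that in their values was not tested.

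Klrg1 lies on the − strand at chr6:122270596-122282882 (ENSMUSG00000030114.8). All 8 of its shared regions were outside the gene body. Its promoter region (122283478 to 122283954; 11.4 and 11.4, −log10 q 62.5 and 61.9) had nearly equal values in the replicates. The strongest region lay 24.7 kb downstream of the start, beyond the 3′ end (122257707 to 122259081), with 15.4 and 14.6 and a −log10 q of 222 and 193. A region at −7.38 kb had 7.64 and 7.19. The region that sits next to the 3′ end of the gene (122270034 to 122270558) had 5.68 in replicate 1 and 3.38 in replicate 2, a ratio of 0.595 of replicate 2 over replicate 1, and a −log10 q of 17.6 and 5.23. It was the only region of the 41 whose signal differed by over 1.5-fold, and 2.18% of all shared regions differed by that much.

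The strong region beyond the 3′ end of Klrg1 is the edge of a long empty stretch. No region of either replicate lay between it and the next shared region on that side, a span of 784 kb (121473522 to 122257706). Of the 84359 distances between neighbouring shared regions, 476 (0.564%) were at least as long. The span holds A2m, Mug1 and Mug2, genes of plasma protease inhibitors of the liver, and Gm7298. It has no unknown bases, and 59.6% of its 31-letter words occur once in the genome. On the other side of Klrg1 a further strong region (14.1 and 13.9) lay 5.43 kb outside the window.

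Cd69 lies on the − strand at chr6:129267325-129275436 (ENSMUSG00000030156.5). Its promoter region (129274629 to 129276113; 9.54 and 9.61, −log10 q 310 and 279) had its summit on the start base in replicate 1. The strongest region stood at −9.16 kb (129284097 to 129285364), with 15.5 and 15.2, percentiles of 95.6 and 95.7, and a −log10 q of 452 and 386, the highest of the 41 in both replicates. A region 19.2 kb downstream of the start (129254972 to 129256348) had 8.72 and 8.41. Cd69 was the only gene of the 8 with 3 shared regions in its body. They are the promoter region, a weak region near the start, and a broad one over its last exon (129266006 to 129268380; 4.96 and 5.63). The weak region overlapped an exon of a retained-intron transcript and no coding or untranslated sequence of the gene.

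**Figure D2:**
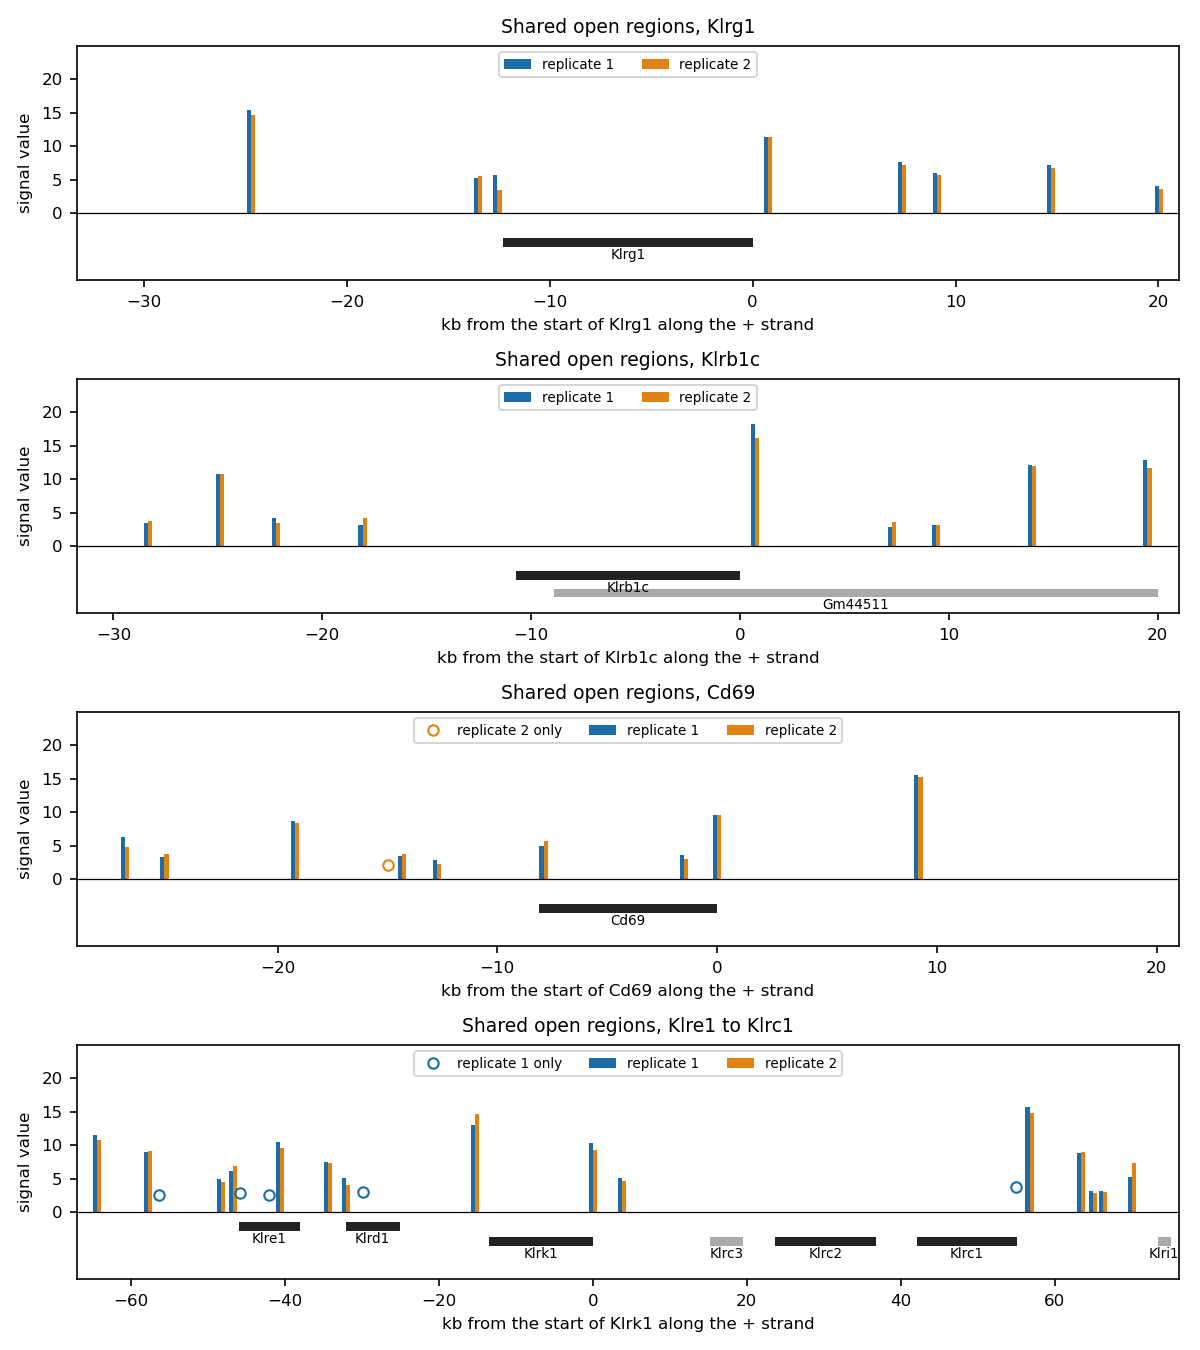
Signal of the shared open regions at the 4 loci, plotted at their distance in kb from the start of the gene named on the axis, along the + strand, so that upstream of Klrg1, Klrb1c, Cd69, Klrk1, Klrc2 and Klrc1 is to the right. Bars are replicate 1 and replicate 2, circles are regions of 1 replicate, black boxes are the 8 genes and grey boxes their neighbours. Strong bars stand outside the gene boxes at every locus, and no bar stands over Klrc3, Klrc2 or Klrc1.

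The number of regions differed between the genes. Klrb1c and Cd69 had 9 shared regions in their windows of 20 kb beyond each end of the gene, Klrg1 8, Klre1 7, Klrd1 6, Klrc1 5, Klrk1 4 and Klrc2 2. Across the 8 genes the median was 6.5, and across all 21911 coding genes it was 4. Set beside genes of the same length decile, Klrb1c and Cd69 had more than 94.7% of them, Klrg1 more than 86.0%, Klre1 more than 85.9% and Klrd1 more than 76.6%. Klrc1, Klrk1 and Klrc2 were nearer the middle or below it, with 50.9%, 38.7% and 19.5%. The windows of neighbouring genes share regions, so these are not separate observations. Of the 41 regions 8 lay in more than 1 window.

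**Figure D3:**
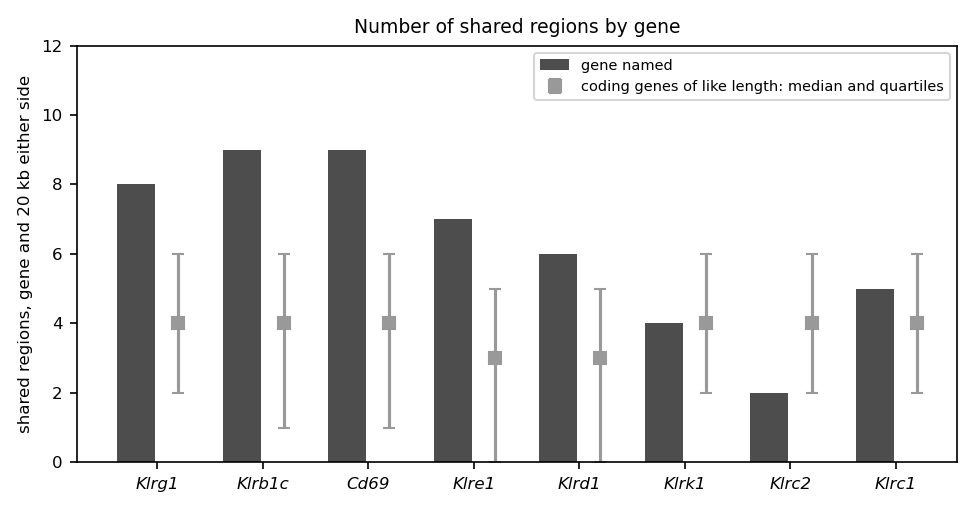
Shared open regions in the window of each gene. Black bars are the 8 genes, and grey squares with lines are the median and quartiles of coding genes of like length. The bars of Klrg1, Klrb1c, Cd69, Klre1 and Klrd1 stand above the upper quartile, those of Klrk1 and Klrc1 within the quartiles, and that of Klrc2 on the lower quartile.

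The replicates gave nearly the same picture of these loci. Of the regions in the 8 windows, 42 of 47 in replicate 1 (89.4%) and 41 of 42 in replicate 2 (97.6%) were shared, against 86.6% and 93.0% of all regions. The 5 regions of replicate 1 alone and the 1 of replicate 2 alone were weak by signal, at 2.12 to 3.71. Their −log10 q ran from 2.38 to 28.6, the highest being at the start of Klrc1. Those of replicate 1 fell near Klre1 and Klrd1, except the 1 at the start of Klrc1. The signal of the 41 shared regions had a median ratio of 0.956 of replicate 2 over replicate 1 (0.595 to 1.40), against 0.978 over all shared regions. It was higher in replicate 1 at 26 regions and higher in replicate 2 at 15, and 58.1% of all shared regions were higher in replicate 1. Summits lay a median of 10 bp apart, against 13 bp over all. The median signal of the 41 was 6.19 and 6.71, against 6.92 and 6.72 over all shared regions, so these loci were of ordinary strength apart from the few strong regions described.

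**Figure D4:**
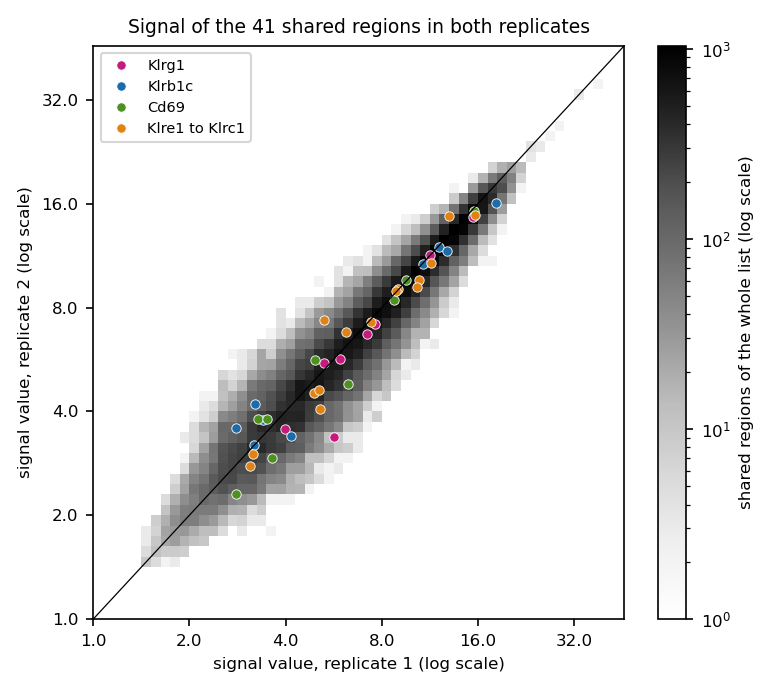
Signal of the 41 shared regions in replicate 1 and replicate 2 on log axes, coloured by locus, over the density of all shared regions in grey. The points lie along the line of equal signal, and the 1 point furthest below it is the Klrg1 region at 5.68 and 3.38.

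Most of these regions lay between genes. Of the 41, 26 (63.4%) were intergenic, 8 (19.5%) were in the promoter class, 4 (9.76%) were intronic and 3 (7.32%) exonic, where all shared regions had 28.5%, 25.5%, 37.2% and 8.78%. The promoter class here means within 1 kb of any annotated start, and 1 of the 8 belongs to the pseudogene Gm7309 upstream of Klrc1. Short genes leave little room for introns. In windows of the 3610 coding genes of 6994 to 13542 bp, the range of these 8, the shares were 24.3% intergenic, 48.3% promoter, 14.8% intronic and 12.6% exonic. Within the body of 1 of the 8 genes lay 6 of the 41 regions (14.6%), against 34.3% for genes of that length. All 4 regions of the intronic class were in Gm44511. The weak Cd69 region near the start was classed as exonic through a retained-intron transcript alone, and overlapped no coding or untranslated sequence of the gene. The 41 regions were also poorer in GC, with a median of 44.7% against 48.0%, and in CpG, with an observed over expected ratio of 0.156 against 0.22.

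Motif matches were counted within 100 bp of each replicate 1 summit, on both strands. The letters searched were TGTGGT for RUNX, AGGAAG for ETS, AGGTGTGA for T-box, TGANTCA for AP-1, CAGNTG for E-box, CTTTGA for TCF/LEF, TTCNNNGAA for STAT, AGATAA for GATA, GGGNGTGG for KLF and TGGAAA for NFAT, with N for any base. Longer motifs of IRF, NF-kB and CTCF were searched as well. RUNX letters occurred in 18 of the 41 (43.9%), against 22.7% of all shared regions. Within 50 bp the shares were 22.0% and 14.0%. TCF/LEF letters occurred in 11 (26.8%) against 14.5%, and ETS letters in 16 (39.0%) against 31.8%. The shares within 50 bp were 14.6% against 7.57% for TCF/LEF and 26.8% against 18.8% for ETS. AP-1 letters, in 12 (29.3%) against 26.0%, and E-box letters, in 18 (43.9%) against 45.0%, were near their background within 100 bp. Their shares within 50 bp were 24.4% against 18.8% for AP-1 and 29.3% against 26.3% for E-box. T-box letters, the type of motif that T-bet recognises, were in 1 region (2.44%) against 1.62%. The letters for IRF were in none of the 41 at the replicate 1 summits and in 1 at the replicate 2 summits, against 4.99% and 4.97%. The other 6 motifs were in 1 to 4 regions each. NFAT letters were in 9.76% against 15.2%, KLF letters in 4.88% against 8.01%, and CTCF letters in 4.88% against 7.64%. For STAT the shares were 7.32% and 7.99%, for GATA 7.32% and 6.91%, and for NF-kB 2.44% and 1.61%. With 41 regions a few matches move a share by several percentage points. The 41 regions are also poorer in GC and CpG than all shared regions, and the part of that in these shares was not tested.

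**Figure D5:**
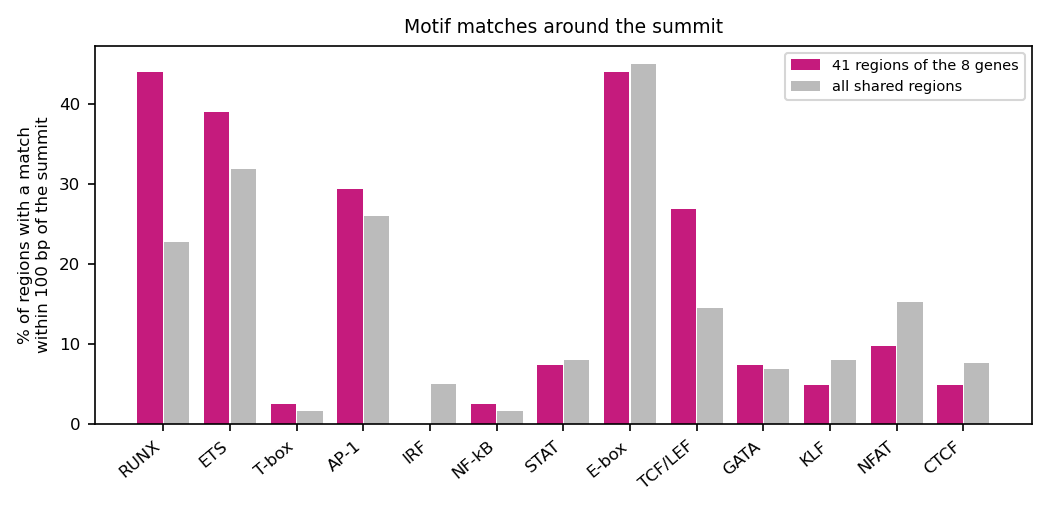
Percent of regions that hold each motif within 100 bp of the replicate 1 summit, for the 41 regions of the 8 genes (pink) and all 84380 shared regions (grey). RUNX and TCF/LEF show the widest gaps, and E-box bars are nearly level.

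The neighbours of these genes in the NK gene complex were open less often. Of 36 coding genes on that list 15 (41.7%) had an open promoter, against 65.9% of all coding genes. The list takes in 11 Klra (Ly49) genes, of which 2 were open. In their segment 56.4% of 31-letter words occur once in the genome, and the part of that in the share was not tested. Styk1, a receptor-like kinase gene, was strongest by percentile with 15.6 and 15.5. Clec2h had 16.2 and 14.6, Clec2d, which encodes a ligand of Klrb1-type receptors, 12.7 and 12, Clec2i 11.6 and 11.9, and Klrb1b, an inhibitory relative of Klrb1c, stood at a mean percentile of 36.3. Klri2, a partner of the Klre1 protein, had 7.45 and 7.32, and its relative Klri1 had no open promoter. Tmem52b, Klrb1f, Ybx3, Gabarapl1, Klra2 and Clec2l had mean percentiles of 16.1 to 32.7, and Klri2 lay within that range at 21.1. Klrc3, the other Klrc gene, had none. Clec2l and A2m are on that list but lie elsewhere on chromosome 6.

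Of 18 genes of adaptors and proximal signalling 16 (88.9%) had an open promoter, against 65.9% of all coding genes. Hcst, which encodes DAP10, the adaptor of NKG2D, had a low promoter signal of 5.00 and 4.99 (percentile 8.54). Tyrobp, which encodes DAP12, had no open promoter, although 6 shared regions lay in its window. The other gene without one was Sh2d1b1, an adaptor gene of natural killer cells. The strongest were Ptpn11, a phosphatase gene (13.3 and 13.3), the kinase gene Fyn (13.2 and 13.0), the adaptor gene Lat (12 and 11.9) and Pik3r1 (11.5 and 11.6), which encodes a regulatory subunit of PI3 kinase. Lat2 was low, with 5.94 and 4.30.

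On the list of receptor ligands and partners 10 of 16 genes (62.5%) had an open promoter, near the 65.9% of all coding genes. H2-K1, a classical MHC class I gene, had 12.8 and 12.6, and B2m, the common light chain of MHC class I, 9.43 and 10.4. H2-T23, the gene of Qa-1, which the CD94 and NKG2 pair binds, had 9.48 and 8.90. Among ligands of NKG2D, Ulbp1 had 11.2 and 11.3, Raet1e and H60b shared 1 region of 6.65 and 6.45, and Raet1d and H60c had none. Cdh1, whose E-cadherin protein binds KLRG1, had 8.46 and 9.69, whereas Cdh2 and Cdh4, for the other cadherins on the list, had no open promoter. S1pr1, whose receptor protein binds CD69, had 9.09 and 9.22, and S100a8 and S100a9 had none. H2-T23, Cdh1 and S1pr1 were chosen for naming after their values were seen.

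Markers of the cell types that the libraries could hold bear on receptor genes first known from natural killer cells. Of 14 coding T cell and T-helper 1 markers 14 had an open promoter, among them Cd3e (9.06 and 9.71), Cd4 (2.29 and 2.33), Tbx21 (5.48 and 5.65) and Ifng (7.25 and 6.55). Of 15 natural killer markers 10 had one, with promoter signals of 5.68 to 17.6 in replicate 1 and 5.38 to 13.9 in replicate 2. Those open were Xcl1, Prf1, Klrb1b, Itga2, Eomes, Cd244a, Klri2, Il2rb, Nfil3 and Fcgr3. Ncr1, the defining receptor gene of natural killer cells, had no shared region in its window at all, nor had the Ly49 gene Klra8. In the Ly49 segment 56.4% of 31-letter words occur once in the genome, and the part of that at Klra8 was not tested. Klra4, Gzma and Tyrobp had shared regions in their windows but no open promoter. The natural killer share of 66.7% is near the 65.9% of all coding genes. CD8 T cell markers were open at 1 of 2 genes, Cd8b1 (7.32 and 8.14) and not Cd8a. Myeloid markers were open at 3 of 8, Spi1 (8.73 and 8.50), Cebpa (8.79 and 8.66) and Cd14 (8.29 and 8.10), without Lyz2. Hepatocyte markers were open at 1 of 6, Apoa1 (13.8 and 13.8). B cell markers with an open promoter were Cr2 (15.4 and 14.1), Pax5 (11.2 and 10.7), Ebf1 (8.36 and 8.60), Blk (3.83 and 4.69) and Cd79b (2.35 and 3.53). The B cell markers Cd79a and Ms4a1 had no open promoter. Apart from Ncr1, Cd8a and Lyz2, the markers named here for cells other than T-helper 1 cells were chosen after their values were seen. Of the open markers named for CD8 T, myeloid, liver and B cells, all had higher promoter signals than Cd4 in both replicates. All but Blk and Cd79b were above Tbx21 and Ifng as well. Apoa1, Cr2 and Pax5 alone were above Cd3e. The T cell genes compared here do not span their list, on which Cd4 had the lowest percentile (0.267) and Cxcr6 the highest (96.9). Cxcr6, named after its value was seen, had 17.5 and 17.3, above all of those CD8 T, myeloid, liver and B cell markers. The median percentile of the 14 open T cell and T-helper 1 markers was 16.1. The part of other cells in the values of the 8 receptor genes was not tested.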

How the data were processed

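Open chromatin was measured by ATAC-seq, per the labels, in T-helper 1 cells, with 1 list of open regions per replicate on mm10. Which aligner and region caller made them is not given in the sources used here. Per the file headers and the deposited lists, each row is 1 region of 1 replicate. The authors deposited a signal value, which is an enrichment over a reference that is not stated. They deposited −log10 p and −log10 q, the smallest −log10 q being 1.01 and 1.0, and a display score that was not analysed. Names of the regions include ASTARR, insert, masked and a time in hours. Their meaning is not stated, nor whether each list is from plain ATAC-seq or from a reporter library's inserts, so the assay is given as labelled. Read depth is not given in the lists, so no counting interval can be stated.

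The lists hold 98875 and 91488 regions, of which 89 and 85 lay off chromosomes 1 to 19, X and Y and were left out. Overlapping regions of both lists were joined and took the strongest signal of each replicate. Genes came from GENCODE M21 and RefSeq on GRCm38.p6. Python 3.11.15, numpy 2.4.6, pandas 2.3.3 and numba 0.67.0 were used, and the overlap and motif counts were tested on simulated data. The genes, lists, motifs and the naming rule were chosen with earlier results of these data known. All 8 genes are named. Up to 12 open neighbours of the NK gene complex are named by promoter percentile, as are the 4 highest, the 2 lowest and the closed genes of the adaptor and ligand lists. At each gene the promoter regions, the 3 strongest regions and any region with over 1.5-fold difference are described, and regions outside that rule were chosen after their values were seen. 6 listed genes that are not annotated as protein-coding (Clec2f, Clec2m, Clec7a, Klrh1, Csda and Trac) were left out, and 1 B cell marker and the share of its list are not reported here. No test was run, since the series has 1 group. Alternatives changed the window, the promoter distance, the starts, the overlap, the −log10 q threshold, the replicates, the ranked value and the motif window.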

Additional observations from a re-analysis of the deposited data

How the results depend on the processing

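The counts followed the window. The 41 shared regions became 6 in the gene bodies alone, 17 with 5 kb and 67 with 50 kb on either side, and the median per gene of 6.5 became 0.5, 2.5 and 11. With replicate 2 or replicate 1 alone there were 42 to 47 regions. A 50% reciprocal overlap gave 39, as did a −log10 q of at least 5, under which the 5 shared regions of Klrc1 became 3. Of the 6 open promoters 5 remained within 500 bp (without Klrg1), and 7 were open within 2.5 kb or, with replicate 1 alone, within 1 kb (with Klrc1). Of all coding genes 64.4% were open within 500 bp, 69.0% within 2.5 kb and 67.0% with replicate 1 alone. When a region had to cover a coding start, a choice made after seeing the data, 3 of the 8 genes remained, against 60.6% of all coding genes. The promoter class held 15 of the 41 regions at 2.5 kb in place of 8. RUNX letters were in 9 regions within 50 bp of the summit in place of 18, and TCF/LEF letters in 6 in place of 11. Most of these changes follow from a wider or narrower window. The number of open promoters among the neighbours ranged from 13 to 18, and stayed at 16 for the adaptors and 10 for the ligands and partners. Ranked by −log10 q, the median percentile of the 41 regions was 55.6 in replicate 1 and 50.1 in replicate 2, in place of 51.3 and 53.7 by signal. No paired analysis was possible because the series has 1 group. The depth of the libraries is unknown, so a region missing in 1 replicate may be one that was not detectable there.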

Other observations

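Along the NK gene complex the density of shared regions differed between segments. From Klrb1a to Clec2d, the segment of the Klrb1 and Clec2 genes that holds Klrb1c, there were 40 shared regions in 577 kb, or 6.93 per 100 kb. From Cd69 to Gabarapl1 there were 25, or 9.09 per 100 kb, and from Klre1 to Klrc1 there were 6, or 5.94. From Klri1 to Klra2, the segment of the Ly49 genes, whose receptors bind MHC class I, there were 26 in 1550 kb, or 1.68 per 100 kb. Chromosomes 1 to 19, X and Y together had 3.10 per 100 kb. The share of 31-letter words found once in the genome was 71.1%, 90.1%, 66.7% and 56.4% in these segments in the same order. The part of that in the densities was not tested.

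Open promoters were also counted by family, and 65.9% of all coding genes had one. With few genes in each family, 1 gene moves a share by many percentage points. Of the 11 Klra (Ly49) genes 2 had an open promoter, Klra2 and Klra5, and 3 (Klra8, Klra9 and Klra10) had no shared region in the gene or within 20 kb of it. In the Ly49 segment 56.4% of 31-letter words occur once in the genome, and the part of that in these counts was not tested. Of the 2 Klri genes 1 was open, Klri2. Of the 6 Clec2 genes 4 were open (Clec2d, Clec2h, Clec2i and Clec2l, the last of which lies outside the complex), of the 4 Klrb1 genes other than Klrb1c 2, and of the 6 genes of the Clec1, Clec9a, Clec12 and Olr1 group 1. Klra5 (3.46 and 3.23) and Clec12a (2.66 and 2.17) had weak promoter regions, and both were chosen for naming after their values were seen.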
